A study of Mus musculus with 36 samples.

Results

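Mitosis and kinetochore genes were followed in mouse hearts from E10.5 to old age. The set holds 52 genes, chosen by symbol, that encode mitotic kinases, spindle checkpoint and anaphase proteins, centromere and NDC80 proteins, kinesins, spindle and cytokinesis proteins, condensin subunits, topoisomerase II alpha and the antigen Ki-67. They are 52 of the 20701 gene IDs on the array, and 122 of its probe sets carry their symbols. Each gene was read from the probe set with the highest mean over all 36 arrays, and 51 of the 52 members had a stage mean above 5 on the log2 scale in at least 1 stage, the exception being Kif15. The choice of genes used no measured value, although earlier results of these data were known.

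All animals were OF1 mice (Oncins France 1), and no genotype change or treatment is named in the labels. Hearts came from 10 daily embryonic stages that start with E10.5 and end with E19.5, from young adults aged 10 weeks and from old adults, whose age is 14 months in the series description and another in the study's methods, with 3 arrays per stage that the methods describe as biological replicates. At E10.5 and E11.5 all 3 arrays hold mixed male and female hearts, whereas each later stage has 1 array labelled female, 1 male and 1 mixed. The extraction protocol in the labels names liver, but the liver marker list averaged 3.05 to 3.81 (log2) over all arrays and the cardiomyocyte list 11.37 to 12.09, with Alb at 4.05 ± 0.46 and Actc1 at 11.69 ± 0.40 in young adults (SD, n = 3).

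In a dividing cell the kinases Plk1, Aurka and Aurkb drive entry into mitosis and the building of the spindle, and the kinetochore, a protein plate on each centromere, ties chromosomes to microtubules. Unattached kinetochores hold the checkpoint proteins Mad2l1, Bub1b and Bub1, which restrain Cdc20, the activator of the anaphase promoting complex (APC/C), until every chromosome is attached. Separase then cuts cohesin, the chromatids part and the cell is cleaved in cytokinesis. Heart muscle cells divide in the embryo and largely stop soon after birth. Many mitotic genes share a promoter element, the cell cycle genes homology region (CHR), which binds the DREAM and MuvB complexes, and CCAAT boxes, which bind the factor NF-Y.

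To show these elements beside the expression values, RefSeq promoter windows (build GRCm38.p6, 250 bases before to 50 bases after a start) were searched. Windows were found for 45 of the 52 members, 49 windows in all. The CHR core TTTGAA, on either strand (TTCAAA on the other), was present in 34 of these 49 windows (69.4%), which belong to 32 members, against 17.9% of all 32851 windows and 16.0% of the windows of protein-coding genes. CCAAT on either strand (ATTGG on the other) was present in 36 windows (73.5%) against 37.4% of all windows, and both motifs in 29 windows (59.2%) against 6.95%. The 2 motifs can share a base, and a window was counted once per motif. A match describes these letters only. The 100 bases before the start are shown for 7 members with a match there, chosen after their values were seen. On the probe sets read here Ube2c, Top2a and Kif11 fell from E10.5 on, Cdc20, Kif22 and Ncapg stayed high until late in embryonic life, and the only probe set of Kif15 stayed under the limit of 5, so that its course is not known. Capitals mark both motifs.
Ube2c: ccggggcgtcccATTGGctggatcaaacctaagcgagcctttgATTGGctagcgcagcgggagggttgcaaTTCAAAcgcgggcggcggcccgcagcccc
Top2a: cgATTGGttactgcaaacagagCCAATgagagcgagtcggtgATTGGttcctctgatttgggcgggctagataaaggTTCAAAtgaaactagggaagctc
Kif11: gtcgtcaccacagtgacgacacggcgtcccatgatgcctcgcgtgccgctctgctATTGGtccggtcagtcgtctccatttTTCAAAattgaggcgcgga
Cdc20: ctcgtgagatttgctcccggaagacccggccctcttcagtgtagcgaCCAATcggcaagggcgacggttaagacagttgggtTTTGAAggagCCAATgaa
Kif22: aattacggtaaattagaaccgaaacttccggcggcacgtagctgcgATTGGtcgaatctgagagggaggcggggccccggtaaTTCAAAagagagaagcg
Ncapg: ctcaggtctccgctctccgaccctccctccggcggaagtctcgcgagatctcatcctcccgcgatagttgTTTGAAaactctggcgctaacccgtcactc
Kif15: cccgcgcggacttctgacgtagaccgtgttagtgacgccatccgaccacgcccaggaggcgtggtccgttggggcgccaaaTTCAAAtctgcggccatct

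These stretches lie at chr2:164769829-164769928 on the plus strand for Ube2c, chr11:99024190-99024289 on the minus strand for Top2a, chr19:37376282-37376381 on the plus strand for Kif11, chr4:118437344-118437443 on the minus strand for Cdc20, chr7:127042421-127042520 on the minus strand for Kif22, chr5:45669825-45669924 on the plus strand for Ncapg and chr9:122950981-122951080 on the plus strand for Kif15. The core of these 7 starts within 30 bases of the start, which their choice largely fixed. Over the set, the 32 members with the core had a median E10.5 minus young adult difference of 3.50 (log2), with a range of -0.77 to 5.70. The 13 members with a window but without it had a median of 3.84 and a range of 1.48 to 5.55, so the ranges overlapped. No window was held for Aurkb, Cdca2, Incenp, Kif20a, Smc4, Spc24 and Tpx2.

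To ask how the members differ between embryonic and mature hearts, each embryonic stage was compared with young adults in 1 limma model of all 36 arrays. A gene was called at a Benjamini-Hochberg adjusted p under 1e-05, a log2 difference above 2 (4-fold) and, in 1 or more stages, a mean over 5. At E10.5, 50 of the 52 members were called higher than in young adults, against 5.14% of all genes, and none lower. The number called was 46 both on E11.5 (4.27% of all genes) and on E12.5 (4.02%), and between 39 and 43 on the next 4 days, with 41 on E13.5 (3.37%), 43 on E14.5 (3.25%), 40 on E15.5 (2.91%) and 39 on E16.5 (2.66%). It was 35 on E17.5 (1.85%), 34 on E18.5 (1.79%) and 25 on E19.5 (1.02%). With the mean of all probe sets of a gene the count was 35 at E10.5 and 18, 14 and 7 on the last 3 days. With the level of the hybridization controls as a covariate the count for E10.5 was 33. That level was 9.68 to 10.35 at E10.5 and 12.03 to 12.43 in young adults, so level and stage cannot be fully told apart. The members' median SE for E10.5 was 0.35 with this covariate and 0.21 without it. The shares of all genes above belong to neither of these alternative settings. The median difference of the members was 3.50 (log2) for E10.5 and 1.98 for E19.5, while that of all genes was -0.21 and -0.05. Because the tissue is bulk, fewer cells of a dividing type and less RNA per cell cannot be told apart.

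**Figure D1:**
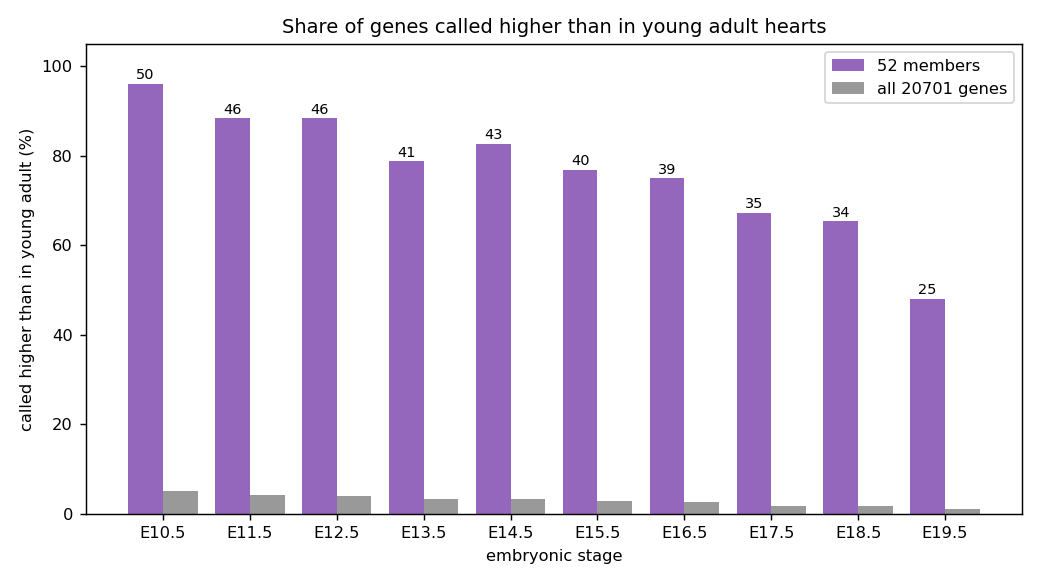
Percent of the 52 members (purple, number above the bar) and of all 20701 genes (grey) called higher than in young adult hearts, by embryonic stage; calls need adjusted p under 1e-05, log2 above 2 and a stage mean above 5. The members' count is 50 for the first and 25 for the last of the 10 days, and the share of all genes from 5.14% to 1.02%.

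At an adjusted p under 0.05 with no limit on the fold, 51 members were higher at E10.5 than in young adults (28.5% of all genes) and Kif15 was lower (38.6%). At E19.5, 47 were higher (17.0% of all genes) and none lower (14.7%), and the 5 that did not pass were Aurka, Cenph, Nuf2, Kif15 and Kif18a. For the same 47 members all 3 E19.5 arrays lay above all 3 young adult arrays, which held for 18.5% of all genes. In young adults 39 of the 52 members had a mean under 5, close to the floor of the array, so that their folds are compressed. Of all 122 probe sets of the members, including dim ones, 108 were higher at E10.5 and 114 were higher at E19.5 than in young adults. These counts are of direction only, and several of these probe sets can belong to 1 gene. The share over all probe sets was not taken, and the median difference of all genes was -0.21 and -0.05 (log2).

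**Figure D2:**
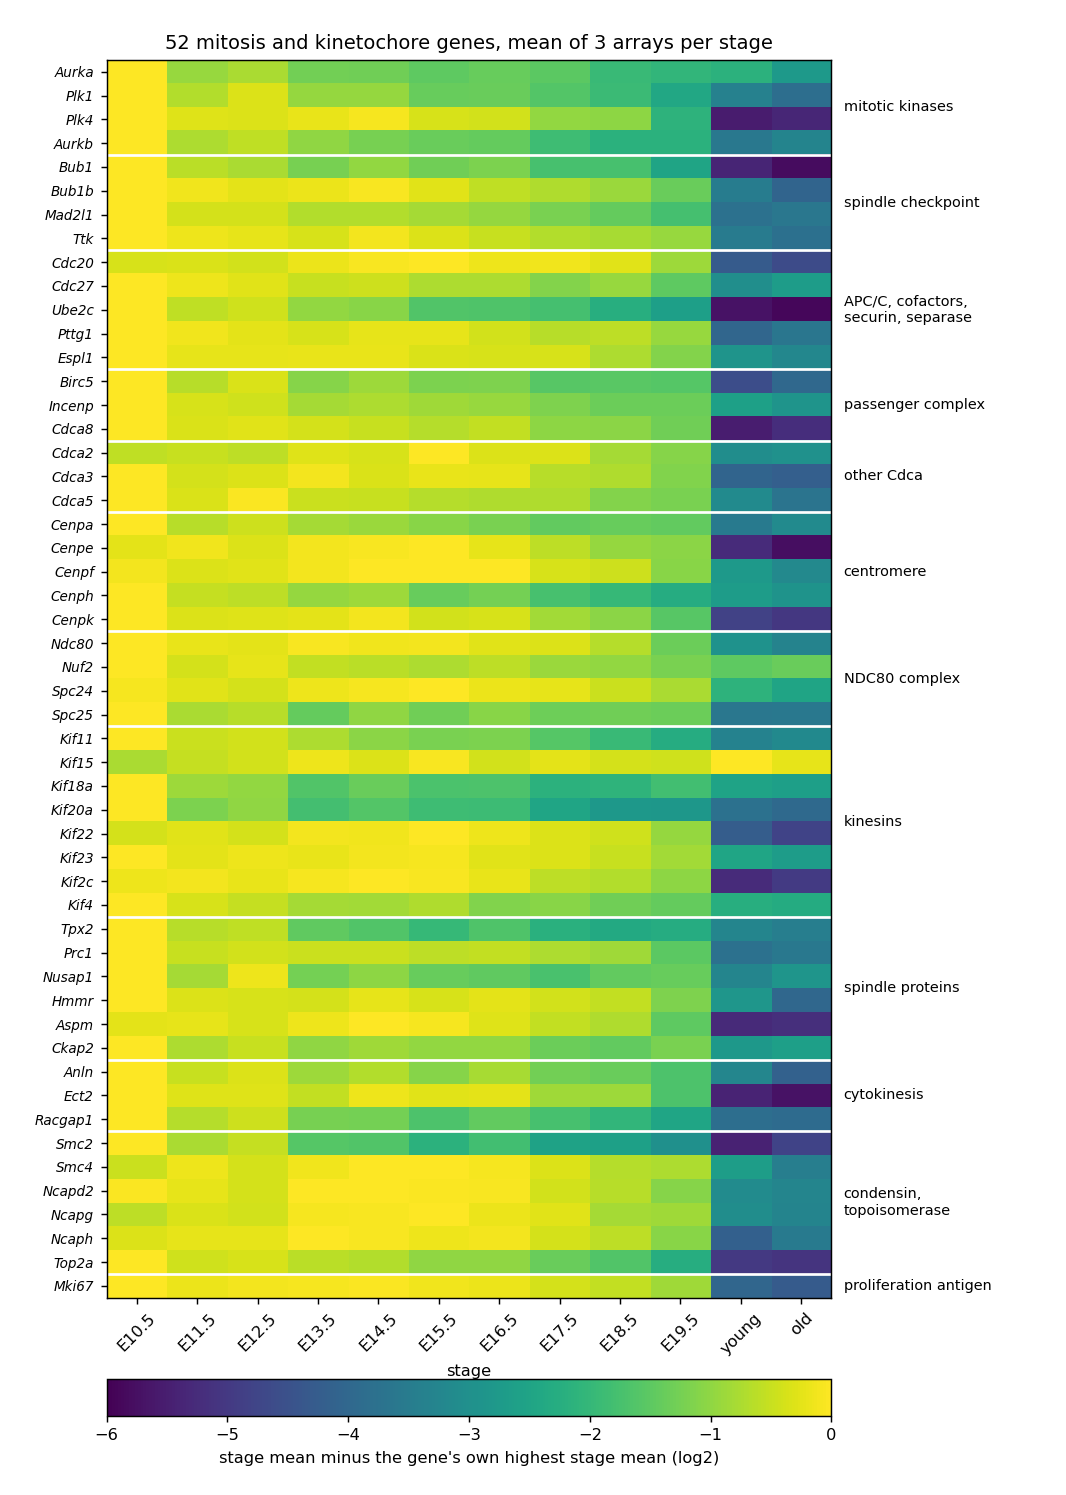
Stage means (3 arrays each) of the 52 members as a difference from each gene's own highest stage mean (log2; yellow is the highest stage, dark blue 6 lower), with genes in rows by group and stages in columns. Nearly all rows are darkest in the young and old adult columns, Kif15 is the exception, and rows such as Smc2 and Kif20a darken early whereas Cdc20, Kif22, Smc4 and Ncapg stay bright to E16.5.

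Among the 4 mitotic kinases, all were called higher at E10.5 than in young adults, with a median difference of 3.48. Plk4, which starts the duplication of centrioles, read 9.29, 9.03 and 9.25 on the E10.5 arrays, 7.25, 6.77 and 7.19 at E19.5 (female, male, mixed) and 4.07, 3.43 and 3.40 in young adults. The stages did not overlap, and the E10.5 level was 47.0-fold above the young adult level (log2 5.55 ± 0.19 SE, limma adjusted p = 4e-21). On other probe sets of Plk4 above the limit of 5 the difference was 2.43 and 2.66. The folds by gene, here and below, are of the probe set read for each gene, and other probe sets often gave smaller ones. Aurka, the kinase of centrosomes and spindle poles, read 7.04, 7.23 and 6.59 at E10.5, 5.13, 4.96 and 4.64 at E19.5 and 4.58, 5.42 and 4.44 in young adults. Its E10.5 arrays stood apart, whereas its E19.5 and young adult arrays overlapped. The difference between E10.5 and young adults was 2.14 ± 0.25 (adjusted p = 1.7e-08), nearly all of it within the embryo, and that between E19.5 and young adults was 0.10 ± 0.25 (adjusted p = 0.82). Plk1, which acts throughout mitosis, was 10.3-fold higher at E10.5 than in young adults, and Aurkb, the kinase of the chromosomal passenger complex, 12.0-fold.

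Of the 4 spindle checkpoint genes, all were called at E10.5. Bub1, a kinase of the outer kinetochore, read 8.64, 8.63 and 8.15 at E10.5, 6.34, 6.04 and 5.53 at E19.5 and 3.26, 3.08 and 2.96 in young adults. With no overlap between stages, it was 41.5-fold higher at E10.5 than in young adults (5.37 ± 0.20, adjusted p = 6.6e-20). Bub1b (BubR1, part of the complex that inhibits APC/C) had the smallest difference of the group. It read 7.87, 8.06 and 8.06 at E10.5, 6.79, 6.69 and 6.37 at E19.5 and 3.92, 5.09 and 4.52 in young adults, which is an 11.2-fold difference between the first and the last (3.49 ± 0.19, adjusted p = 5.8e-16). Mad2l1, the checkpoint protein that binds Cdc20, was 13.6-fold and the checkpoint kinase Ttk 11.4-fold higher at E10.5 than in young adults. Another probe set of Ttk, with a highest stage mean of 5.04, gave a difference of -0.37 (log2).

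The genes that open anaphase were all called at E10.5. Ube2c, the ubiquitin-conjugating enzyme of APC/C, had the largest difference of the 52 members. Its arrays read 9.49, 9.67 and 9.29 at E10.5, 7.16, 6.72 and 6.72 at E19.5 and 3.19, 4.06 and 4.10 in young adults, a 52-fold difference from E10.5 to young adults (5.70 ± 0.33, adjusted p = 1.6e-15). Cdc20 read 9.44, 9.52 and 9.81 at E10.5, 9.10, 8.88 and 9.25 at E19.5 and 5.31, 6.0 and 5.72 in young adults. On this probe set 13.1% of the difference of 3.91 ± 0.14 (adjusted p = 1e-20) lay before E19.5, whereas on the other 2 probe sets of Cdc20 it was 28.7% and 60.7%, and on the 1 of Ube2c 46.0%. Cdc27, a core subunit of APC/C, read 8.51, 8.40 and 8.59 at E10.5, 7.21, 6.93 and 6.91 at E19.5 and 5.80, 5.11 and 5.53 in young adults (difference between the first and the last 3.02 ± 0.18, adjusted p = 4.5e-15). Espl1 (separase) had the smallest difference of the group, with 6.89, 6.94 and 6.86 at E10.5, 6.05, 5.60 and 5.69 at E19.5 and 4.13, 3.83 and 4.05 in young adults (2.90 ± 0.14, adjusted p = 2.5e-17). Pttg1 (securin, the inhibitor of separase) was 16.2-fold higher at E10.5 than in young adults.

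Cdc27 was set beside the other 13 core subunits of APC/C. Of the 13, 1 (Cdc23) was called with the fold limit (5.14% of all genes), and at adjusted p under 0.05 there were 7 higher, 1 lower and 5 that did not pass at E10.5 against young adults, with a median of 0.78 (log2), where 28.5% of all genes were higher and 38.6% lower. Cdc23 was 2.76 ± 0.22 and Anapc1 1.90 ± 0.19 higher, whereas Anapc5 was lower (-0.38 ± 0.11, adjusted p = 0.0038) and Cdc26 differed by -0.30 ± 0.20 (adjusted p = 0.18). At E19.5, 3 of the 13 were higher than in young adults and 1 lower, near the 17.0% and 14.7% of all genes. Whether Cdc27 and the other subunits differ was not tested.

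The 3 partners of Aurkb in the chromosomal passenger complex were all called at E10.5. Cdca8 (borealin) read 9.54, 9.55 and 9.60 at E10.5, 8.39, 8.47 and 7.90 at E19.5 and 3.88, 4.64 and 3.62 in young adults (5.51 ± 0.22, 45.6-fold, adjusted p = 3.9e-19). Incenp, the scaffold of the complex, read 6.83, 7.03 and 6.74 at E10.5, 5.87, 5.87 and 4.85 at E19.5 and 4.42, 3.96 and 4.42 in young adults (2.60 ± 0.22, adjusted p = 9.2e-12). Neither overlapped between E19.5 and young adults. Birc5 (survivin) was 24.1-fold higher at E10.5 than in young adults.

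All 3 other cell division cycle associated genes were called at E10.5 as well. Cdca3, a protein that promotes mitotic entry, read 8.30, 8.31 and 8.36 at E10.5, 7.30, 7.15 and 7.13 at E19.5 and 3.98, 4.30 and 4.49 in young adults (4.07 ± 0.13, 16.8-fold, adjusted p = 1.9e-21). Cdca2, which directs protein phosphatase 1 to chromatin, read 7.16, 6.87 and 7.11 at E10.5, 6.73, 6.44 and 6.43 at E19.5 and 4.39, 4.18 and 5.08 in young adults. Its stages did not overlap, but it had the smallest difference of this group (2.50 ± 0.17, adjusted p = 1.9e-13), of which 20.6% lay before E19.5. Cdca5 (sororin, which protects cohesin) was 8.77-fold higher at E10.5 than in young adults.

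Of the 5 centromere genes, all were called at E10.5. Cenpe, the kinesin of the kinetochore, read 7.92, 7.77 and 8.28 at E10.5, 7.43, 6.73 and 7.47 at E19.5 and 2.36, 3.46 and 3.13 in young adults, a 32.1-fold difference (5.01 ± 0.21, adjusted p = 1.3e-18) with a wide gap between E19.5 and young adults. Cenpf, a large protein of the outer kinetochore, had the smallest difference of the group, with 8.15, 8.22 and 8.35 at E10.5, 7.33, 7.26 and 7.25 at E19.5 and 5.70, 5.51 and 5.55 in young adults (2.66 ± 0.20, adjusted p = 6.6e-13). The histone variant Cenpa was 11.6-fold, Cenpk 28.3-fold and Cenph 6.46-fold higher at E10.5 than in young adults. For Cenph, which like Cenpk belongs to the inner kinetochore, 84.6% of the difference lay before E19.5, against 32.1% for Cenpk. The means of Cenph at E19.5 and in young adults, 3.33 and 2.91, were both under 5, where differences are compressed.

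The NDC80 complex, which grips microtubules, had a median difference of 2.49, and 3 of its 4 genes were called at E10.5. Spc25 read 7.76, 7.99 and 7.41 at E10.5, 6.81, 6.59 and 5.68 at E19.5 and 3.65, 4.36 and 4.28 in young adults (3.62 ± 0.24, adjusted p = 5e-14). Nuf2 read 5.42, 5.64 and 4.78 at E10.5, 4.15, 3.85 and 4.2 at E19.5 and 3.76, 3.35 and 4.30 in young adults. Its E19.5 and young adult arrays overlapped, it was under 5 on most arrays, and its difference of 1.48 ± 0.26 missed the limits (adjusted p = 1.2e-05). Ndc80 was 7.68-fold and Spc24 4.11-fold higher at E10.5 than in young adults.

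Of the 8 kinesins, 7 were called at E10.5. Kif2c (MCAK, which shortens microtubules at centromeres) read 8.27, 8.19 and 8.55 at E10.5, 7.45, 7.46 and 7.5 at E19.5 and 3.28, 3.20 and 3.19 in young adults, a 34.7-fold difference (5.12 ± 0.15, adjusted p = 5e-22). On other probe sets of Kif2c above the limit of 5 the difference was 1.855 and -0.22. Kif15, a spindle motor, read 3.40, 2.78 and 3.47 at E10.5, 3.37, 3.60 and 3.68 at E19.5 and 4.16, 4.35 and 3.45 in young adults. It lay under 5 on every array, the arrays of all 3 stages overlapped, and its 1 probe set was lower at E10.5 than in young adults by the test (-0.77 ± 0.22, adjusted p = 0.0033), with a sign that turned (0.19, adjusted p = 0.8) when the hybridization control level was a covariate. The other 6 were higher at E10.5 than in young adults by 4.73-fold (Kif4, the chromokinesin), 5.57-fold (Kif23, of the central spindle), 5.75-fold (Kif18a, which limits chromosome oscillation), 10.2-fold (Kif11, which separates the poles), 13.5-fold (Kif20a, needed in cytokinesis) and 14.4-fold (Kif22, which moves chromosome arms).

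The 6 spindle microtubule proteins were all called at E10.5. Aspm, which acts at spindle poles and in brain size, read 8.31, 8.28 and 8.57 at E10.5, 7.52, 6.93 and 6.97 at E19.5 and 3.44, 3.38 and 3.19 in young adults (5.05 ± 0.16, 33.1-fold, adjusted p = 8.5e-22). Ckap2 read 7.18, 7.32 and 6.95 at E10.5, 6.17, 5.98 and 5.65 at E19.5 and 4.28, 4.5 and 4.25 in young adults (2.80 ± 0.19, adjusted p = 8.8e-14), and the groups of both genes were fully apart. Tpx2, the activator of Aurka, was 9.67-fold, Prc1, the bundler of the central spindle, 13.6-fold, Nusap1 9.61-fold and Hmmr 7.23-fold higher at E10.5 than in young adults.

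The 3 cytokinesis genes were called at E10.5. Ect2, which activates RhoA at the cleavage site, read 8.79, 8.48 and 8.80 at E10.5, 7.21, 6.93 and 6.93 at E19.5 and 3.28, 3.30 and 3.24 in young adults (5.41 ± 0.18, 42.6-fold, adjusted p = 5.6e-21). Anln (anillin, of the contractile ring) read 8.26, 8.27 and 7.89 at E10.5, 6.69, 6.68 and 6.04 at E19.5 and 4.89, 4.91 and 4.89 in young adults (3.24 ± 0.29, adjusted p = 4.4e-11). Both stood apart at all 3 stages. Racgap1, the partner of Kif23, was 14.3-fold higher at E10.5 than in young adults.

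Among condensin subunits and topoisomerase all 6 were called at E10.5, and 5 of 6 still at E19.5. Smc2, a core subunit of condensin, read 9.62, 9.66 and 9.17 at E10.5, 6.90, 6.54 and 6.06 at E19.5 and 4.03, 4.53 and 3.65 in young adults (5.42 ± 0.30, 42.7-fold, adjusted p = 9.9e-16). Its partner Smc4 read 10.58, 10.36 and 10.87 at E10.5, 10.25, 10.06 and 10.72 at E19.5 and 7.99, 8.90 and 8.39 in young adults (2.18 ± 0.22, adjusted p = 6.4e-10). The E10.5 and E19.5 arrays of Smc4 overlapped, whereas those of Smc2 were apart by more than 2 on the log2 scale. Ncapd2 was 8.5-fold, Ncapg 5.57-fold, Ncaph 14.3-fold and Top2a, which untangles sister chromatids, 31.9-fold higher at E10.5 than in young adults. Mki67, the proliferation antigen that coats mitotic chromosomes, read 9.62, 9.76 and 9.69 at E10.5, 8.91, 8.97 and 8.58 at E19.5 and 5.39, 6.52 and 5.09 in young adults (4.03 ± 0.22, 16.3-fold, adjusted p = 4.8e-16).

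**Figure D3:**
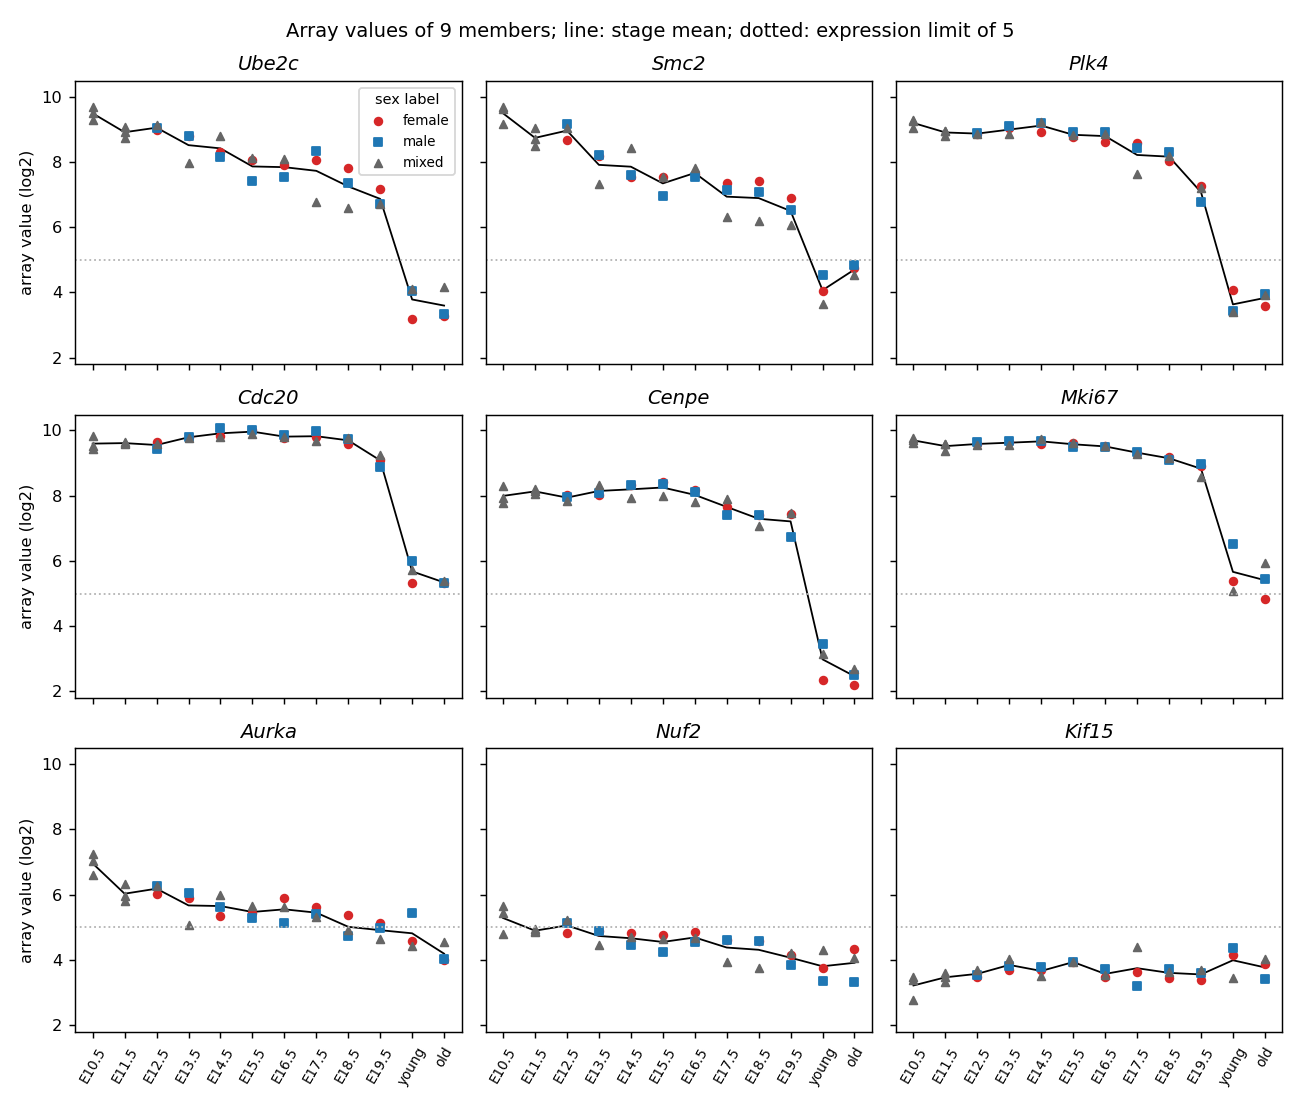
Array values (log2, y axis) of 9 members by stage (x axis), with the sex label as symbol, the stage mean as a line and the expression limit of 5 dotted. Ube2c and Smc2 decline from E10.5 on, Cdc20, Cenpe, Plk4 and Mki67 stay near their first level for most of embryonic life, Aurka and Nuf2 at E19.5 overlap young adults, and Kif15 stays under 5.

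To ask how much of the decline took place within the embryo, E10.5 was compared with E19.5. At the strict limits 13 members were called higher at E10.5, against 1.52% of all genes. They were Aurka, Aurkb, Plk1, Plk4, Bub1, Ube2c, Cenph, Kif11, Kif20a, Tpx2, Racgap1, Smc2 and Top2a, and thus held all 4 kinases. At adjusted p under 0.05, 49 members were higher at E10.5 (23.6% of all genes) and none lower (26.2%), and the E10.5 arrays of the same number lay fully above the E19.5 arrays (25.1% of all genes). The exceptions in both were Kif15, Smc4 and Ncapg. The median difference of the members was 1.35 (log2), and that of all genes -0.16. Only 1 member stayed within the strict limits when the level of the hybridization controls, which lay between 9.68 and 10.35 at E10.5, between 10.97 and 11.39 at E19.5 and between 12.03 and 12.43 in young adults, was a covariate (median 0.99, with 43 members at adjusted p under 0.05), and none on the 6 arrays alone (49 members at adjusted p under 0.05).

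The members differed in the share of the decline that lay before E19.5. Over the 51 members other than Kif15 the median share was 39.5%, with a range of 10.5% (Ncapg) to 95.5% (Aurka), and for 37 of them less than 50% lay before E19.5. By group, the median share was 65.9% for the mitotic kinases, 63.6% for the 7 kinesins other than Kif15 and 26.9% for condensin and topoisomerase. The floor of the array can compress the late part and so raise a share, but its part was not tested. Aurka had means of 4.91 at E19.5 and 4.81 in young adults. All 13 members with a young adult mean of 5 or higher had shares under 50% (11.9% to 49.1%, median 33.9%). Of the 38 members with a young adult mean under 5, 24 also had shares under 50% (10.5% to 95.5%, median 41.4%). The share also depended on the probe set. Smc2 and Smc4, which form 1 heterodimer, had 55.2% and 11.9% on the probe sets read here, but the other probe sets above the limit gave 7.70% to 87.0% for Smc2 and 27.1% and 40.0% for Smc4, so that the ranges of the partners overlapped. These shares are a description and were not tested against each other.

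**Figure D4:**
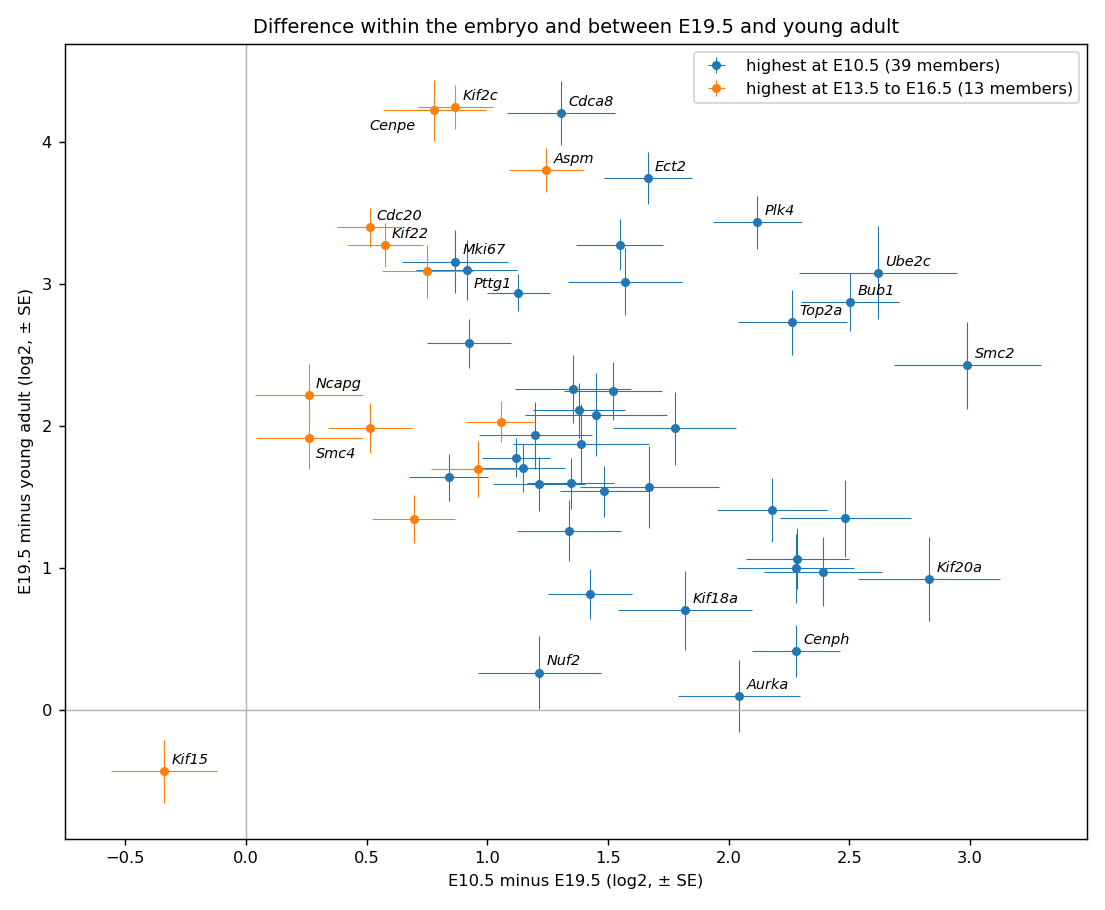
Difference E10.5 minus E19.5 (x axis) against E19.5 minus young adult (y axis) for the 52 members (log2 ± SE), coloured by the stage with the highest embryonic mean. Aurka, Cenph and Kif20a lie at lower right with most of the difference within the embryo, Cdc20, Kif22, Kif2c and Cenpe at upper left with most of it after E19.5, and Kif15 below 0 on both axes.

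The timing within the embryo was followed day by day. On the probe sets read here, the highest embryonic mean was at E10.5 in 39 members and between E13.5 and E16.5 in 13. Among the 13 were Cdc20, Kif22, Cenpe, Cenpf, 4 condensin subunits and the dim Kif15. Other probe sets above the limit of 5 were lower at E15.5 than at E10.5 for Cdc20, Kif22, Ncapg and Ncaph. For example, 1 of Cdc20 went from 7.93 to 6.80 and 1 of Kif22 from 7.41 to 6.71. Those of Cenpe, Cenpf and Ncapd2 were higher at E15.5, and Smc4 had both courses. The linear trend over the 10 embryonic stages fell in 48 members at adjusted p under 0.05 (28.0% of all genes) and rose in none (42.7%). With a change in the array titles, described with the late and early changes, as a term it fell in 25. The steepest was Smc2, which fell by 0.31 ± 0.02 per day on the log2 scale (adjusted p = 1.9e-12), and the trends that did not pass were those of Cdc20 (-0.02 ± 0.01, adjusted p = 0.19), Ncapg, Smc4 and Kif15. Between neighbouring days few members passed. From E10.5 to E11.5, 3 members fell (1.45% of all genes), namely Kif20a (-1.18 ± 0.30, adjusted p = 0.026), Aurka (-0.93 ± 0.25, adjusted p = 0.042) and Ckap2 (-0.74 ± 0.19, adjusted p = 0.032). This count was 0 on the 6 arrays of both stages, with or without the array number as a block, and 0 with the control level as a covariate.

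From E12.5 to E13.5 only Nusap1, which bundles spindle microtubules, fell (0.594% of all genes). It read 7.19, 7.59 and 7.33 at E12.5 and 6.42, 6.46 and 5.93 at E13.5 (-1.10 ± 0.28, adjusted p = 0.044), although it had read 7.11, 6.55 and 6.47 at E11.5. No member passed for this step with a sex block, another quantile normalization, the control level or the title prefix, nor without the E12.5 male or mixed array or any 1 of the E13.5 arrays. More members passed with median centring, with the filter before the model and on the 6 arrays of this step alone. From E18.5 to E19.5, 4 members fell (1.15% of all genes), namely Plk4 (-1.09 ± 0.19, adjusted p = 0.0019), Ect2 (-0.79 ± 0.18, adjusted p = 0.021), Aspm (-0.78 ± 0.16, adjusted p = 0.0083) and Cdc20 (-0.61 ± 0.14, adjusted p = 0.017). Cdc20 read 9.59, 9.72 and 9.76 at E18.5 and 9.10, 8.88 and 9.25 at E19.5, and Plk4 read 8.01, 8.29 and 8.17 and then 7.25, 6.77 and 7.19, without overlap. The count for this step was 0 on its 6 arrays alone, 1 without the male array of either stage and 10 with the control level. No member passed in limma for the steps that end at E12.5 (0.0435% of all genes fell), E14.5 (0.0338%), E15.5 (0.029%), E16.5 (0.00483%), E17.5 (0.00483%) and E18.5 (0.0%). At an unadjusted p under 0.05, 12 members were lower at E17.5 than at E16.5 (5.14% of all genes) and 4 in the step that followed (2.85%). At this threshold 1 was lower in each of the steps to E15.5 (2.43%) and E16.5 (1.54%), and 0 in those to E12.5 (1.94%) and E14.5 (1.77%). The mixed-sex array of E17.5 had a mean over the members of 6.69 and the highest control level of the embryonic arrays (12.01), beside a highest member mean of 7.13 in that stage. Its part in these steps was not tested separately.

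Whether the decline was steeper early or late was tested as the change from E15.5 to E19.5 minus that from E10.5 to E14.5. In 20 members the late change was the lower (11.7% of all genes) and in 3 the higher (11.3%). The 20 were led by Plk4 (-1.68 ± 0.26, adjusted p = 2.7e-05), Aspm (-1.64 ± 0.22, adjusted p = 3.7e-06), Ncapg (-1.37 ± 0.32, adjusted p = 0.0019) and Cdca2 (-1.29 ± 0.25, adjusted p = 0.00031), and held all 4 condensin subunits other than Smc2. The 3 with the steeper early fall were Tpx2 (1.32 ± 0.34, adjusted p = 0.0055), Kif18a (1.23 ± 0.39, adjusted p = 0.022) and Spc25 (0.93 ± 0.34, adjusted p = 0.047). Kif18a had means of 3.79 at E15.5 and 3.66 at E19.5, under 5, where differences are compressed. Other Tpx2 probe sets above the limit went from 4.15 to 5.06, from 4.08 to 4.97 and from 5.82 to 4.03 between E10.5 and E15.5. The 20 and the 3 hold for the probe sets read here. From the E16.5 female array on, the titles carry another prefix. With this prefix as a term, estimated within E16.5 alone, the counts were 8 and 0, and a change of prefix and late stages cannot be told apart otherwise. The shares of all genes above are those of the model without this term.

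Probe sets of 1 gene did not always share a course within the embryo. In 28 members with 2 or more probe sets above the limit of 5, the E10.5 minus E19.5 difference varied between them by a median of 0.94, and by over 1 in 13 members. For Smc2 it was 2.99 on the probe set read here and 0.17 on another, and for Pttg1 0.92 and 2.90. For Kif11 it was 2.28 and -0.45, and for Tpx2 2.28 and -0.84. The E10.5 minus young adult difference varied as well. It spanned 1.96 to 5.42 for Smc2, 1.28 to 4.99 for Top2a and 1.76 to 5.05 for Aspm. For Pttg1 it spanned 0.61 to 4.76 and for Spc25 1.37 to 3.62. It varied less for Bub1b (2.99 to 3.49) and Aurkb (3.30 to 3.59). Of the 94 member probe sets above the limit, 90 were higher at E10.5 and 94 at E19.5 than in young adults. Those not higher at E10.5 belonged to Kif2c (-0.22), Ttk (-0.37) and Tpx2 (-0.43 and -0.26). A probe set can pass the limit through embryonic stages alone, which favours these directions, so the counts are a description only. Of all 122 probe sets, with no limit, 108 and 114 were higher. Probe sets with the suffix x may also take up other transcripts. They served for Aurkb, Cdc20, Kif22, Kif2c and Ncaph, and the share of the decline before E19.5 had a median of 17.0% over these 5 and of 44.5% over the 28 members read from plain probe sets. For Cdc20 the 3 probe sets gave E10.5 minus E19.5 differences of 0.28 to 1.5.

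**Figure D5:**
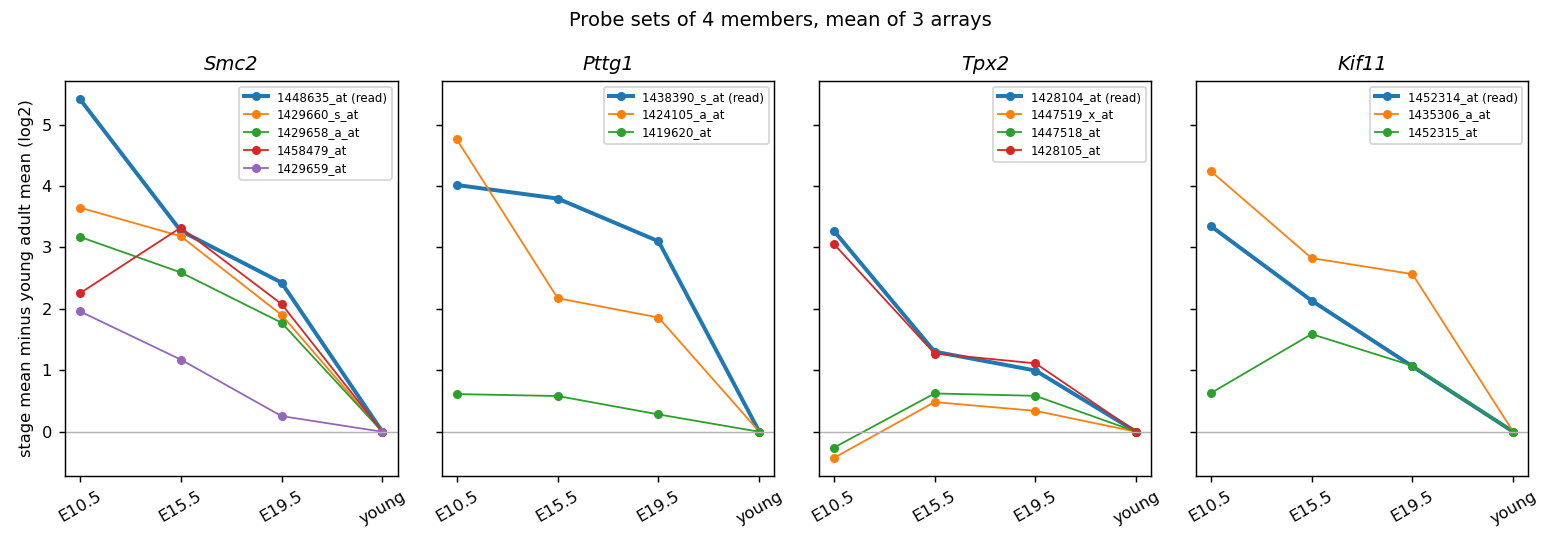
Stage means minus the young adult mean (log2, y axis; 3 arrays per stage) at E10.5, E15.5, E19.5 and young adult for every probe set of Smc2, Pttg1, Tpx2 and Kif11; thick lines are the probe sets read in the text. Smc2 and Kif11 each have a probe set that is higher at E15.5 than at E10.5, and the 2 dim probe sets of Tpx2 lie below 0 at E10.5.

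To ask whether adult age mattered, old adults were compared with young adults. Of the 52 members 3 were lower (3.13% of all genes) and 1 higher (4.46%) in old adults at adjusted p under 0.05, shares near those of all genes. Hmmr, a hyaluronan-binding spindle protein, read 5.95, 5.40 and 5.41 in young and 4.37, 4.58 and 4.41 in old adults (female, male, mixed), without overlap, and was lower by limma (-1.13 ± 0.17, adjusted p = 0.00015). Kif22 read 6.20, 6.70 and 6.43 in young and 5.49, 6.07 and 6.05 in old adults (-0.57 ± 0.16, adjusted p = 0.025). Smc4 (7.99, 8.90 and 8.39 in young, 8.01, 7.35 and 7.60 in old adults; -0.77 ± 0.22, adjusted p = 0.028) and Ncaph (5.53, 4.68 and 5.75 in young, 5.72, 6.19 and 5.95 in old adults; 0.64 ± 0.19, adjusted p = 0.037) passed with overlapping arrays. On other probe sets above the limit the old minus young adult difference was -0.38 for Ncaph and -0.56 and 0.32 for Smc4. It was -0.32 and 0.14 for Hmmr and -0.16 and -0.17 for Kif22. On the 6 adult arrays alone no member passed in either direction. Neither Ube2c (3.29, 3.34 and 4.17 in old adults) nor Mki67 (4.84, 5.44 and 5.94) nor Cdc20 (5.32, 5.32 and 5.38) passed, and the old and young adult arrays of each overlapped. Without the young male array 1 was lower and 0 higher, without the young female array 7 were lower, without the old male or the old mixed array 0 were higher, and without the old female array 4 were higher.

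Male and female hearts were compared in the 9 stages after E12.5, with 1 pair each and the stage as a block. No member passed in limma, against 0.0435% of all genes in either direction. At an unadjusted p under 0.05 there were 3, all lower in males, against 7.89% of all genes in either direction. Of them Nuf2 had the lowest value (-0.33 ± 0.10, adjusted p = 0.48). The differences of all members lay between -0.33 and 0.19 (log2).

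Other genes of the same processes were read from lists written beside the members. Of 75 other mitosis genes, 63 were higher and 3 lower at E10.5 than in young adults, with a median of 2.13. Trip13, a checkpoint ATPase, was 5.87 ± 0.31 higher and Zwilch, of the kinetochore, 5.26 ± 0.24, whereas Cit (citron kinase) and Cenpb were lower by the test (-0.95 ± 0.21 and -0.69 ± 0.15). Of 12 cohesin genes 9 were higher and 3 lower, among them Esco2 (2.77 ± 0.35) and Smc3 (2.28 ± 0.26) against the loader Nipbl (-1.64 ± 0.20) and Esco1 (-0.84 ± 0.22). Of 23 regulators of mitotic genes 14 were higher and 4 lower, led by the E2F factors E2f8 (3.97 ± 0.26) and E2f3 (3.76 ± 0.22), with E2f5 (-1.06 ± 0.30) and E2f4 (-0.89 ± 0.18) at the other end. The background of 28.5% higher and 38.6% lower given above holds for these counts. At E19.5, 53 of the 75, 2 of the 12 and 13 of the 23 were higher than in young adults, against 17.0% of all genes.

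Cell type marker lists were read on the same arrays, where 28.5% of all genes were higher and 38.6% lower at E10.5 than in young adults. The mean of the members over an array was 7.85 to 7.95 at E10.5, 6.34 to 6.66 at E19.5, 4.32 to 4.46 in young and 4.17 to 4.35 in old adults (log2). The erythroid list lay between 5.67 and 6.22 at E10.5, between 3.84 and 3.90 at E19.5 and between 3.77 and 3.85 in young adults (10 of 17 genes higher and 3 lower at E10.5 than in young adults), with the embryonic globin Hbb-y at 13.60 ± 0.20 at E10.5 and 3.10 ± 0.31 in young adults (SD, n = 3). The leukocyte list lay between 3.46 and 3.66 at E10.5 and between 5.72 and 5.99 in young adults (10 of 10 genes lower at E10.5). The endothelial list lay between 6.03 and 6.51 and between 7.29 and 7.43 in turn (7 of 10 lower, 1 higher), and the fibroblast list between 7.96 and 8.14 and between 8.80 and 9.39 (4 of 10 lower and 3 higher, shares near those of all genes). The mesothelium and epicardium list lay between 6.28 and 6.45 and between 4.41 and 5.12 (5 of 8 higher, 1 lower). The cardiomyocyte list stayed between 11.81 and 12.09 at E10.5 and between 11.65 and 11.75 in young adults (5 of 13 higher, 3 lower), and of the 8 liver genes 6 were lower and 0 higher at E10.5. At E19.5 against young adults the erythroid list had 1 gene higher and 1 lower of 17, where 17.0% of all genes were higher and 14.7% lower. The part of these cells in the members' decline was not tested.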

How the data were processed

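RNA of mouse hearts was measured on 36 Affymetrix mouse expression arrays, 3 for each of 12 stages. The deposited values are log2 intensities that the authors made by robust multi-array average (background correction, quantile normalization and summary by probe set); the labels also name Affymetrix Expression Console and Partek 6.6. They were used without further scaling. The number of arrays limits the precision. In the model of all 36 arrays, p-values rest on the spread between the 3 arrays of a stage, pooled over the 12 stages. Each gene ID was read from its probe set with the highest mean over all arrays. Symbols of 19 genes of other lists, damaged in the annotation, were restored through gene IDs of RefSeq (assembly GRCm38.p6). No column of sample values was left unused (0).

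In R 4.3.3, limma 3.58.1 fitted 12 stage means to all probe sets (prior degrees of freedom 6.96), with Benjamini-Hochberg adjustment within each comparison. Limits were an adjusted p under 1e-05, a log2 difference above 2 and, in 1 or more stages, a mean over 5, or an adjusted p under 0.05 alone. The linear trend is the slope through the 10 embryonic means. The fit was tested on simulated data. Named with array values are, per group of 3 or more, the members with the largest and smallest E10.5 minus young adult difference, Mki67, and Cdc20, Cdc27 and Cdca3, besides members past the threshold in the age, sex and daily comparisons (at most 5 by size) and the highest and lowest 2 genes of the other pathway lists. Members and lists were chosen with earlier results of these data known. Alternatives concerned scaling, choice of probe set, filter, blocks, covariates, limits and arrays left out. Male and female arrays were compared without E12.5, as in the study's methods. The study's miRNA data were not analysed here.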

Additional observations from a re-analysis of the deposited data

How the results depend on the processing

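The direction of the members' differences held in most settings, and their number past the limits did not. With the mean of all probe sets of a gene, fewer members were called higher than in young adults. The counts were 35 on E10.5, 28 on E11.5, 30 on E12.5 and 25 on E13.5. They were 25 on E16.5, 18 on E17.5, 14 on E18.5 and 7 on E19.5. With the hybridization control level as a covariate they were 33 at E10.5 and 30 at E12.5, and on the arrays of the 2 stages alone 22 at E17.5 and 19 at E18.5. At E19.5 a log2 limit of 1 gave 38 and an adjusted p under 0.05 without a fold limit 47. For E10.5 minus E19.5 the count was 6 with median centring, 5 with the mean of all probe sets, 1 with the control level, 1 with the title prefix, 0 on the arrays of the 2 stages, 30 with a log2 limit of 1 and 49 without a fold limit. Median centring moved the median of all genes from -0.21 to -0.74 for E10.5 minus young adult and from -0.16 to -0.50 for E10.5 minus E19.5. Relative to it the members' median was 3.71 and 1.51 in either scaling. Centring cannot change these values, because it shifts all genes of an array alike. For old minus young adult the counts lower were 5 after another quantile normalization, 9 with median centring, 1 with the mean of all probe sets, 9 with the control level and 0 on 6 arrays, and those higher 0 in the last 4 of these settings. From E10.5 to E11.5 the count was 1, 7, 0 and 0 with quantile normalization, mean of all probe sets, control level and 6 arrays. From E12.5 to E13.5 it was 0 with quantile normalization, sex block, control level or prefix, 3 with centring or the filter before the model, and 7 on 6 arrays. From E18.5 to E19.5 it was 10 with the control level and 0 on 6 arrays. The falling trends numbered 25 with the prefix. The late change was the lower in 8 with the prefix, and the higher in 1, 1, 0 and 0 with quantile normalization, mean of all probe sets, control level and prefix. The cause of these shifts was not tested. Kif15 at E10.5 minus young adult turned to 0.19 with the control level.

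Leaving out 1 array gave 48 to 50 calls on E10.5, 45 to 47 on E11.5, 46 on E12.5, 40 to 42 on E13.5, 42 to 44 on E14.5, 40 to 41 on E15.5, 39 to 41 on E16.5, 32 to 39 on E17.5, 32 to 35 on E18.5 and 24 to 29 on E19.5, and 11 to 13 for E10.5 minus E19.5. For old minus young adult it gave 1 to 7 lower and 0 to 4 higher. Falling steps numbered 0 to 9 to E11.5 (0 without E10.5 array 1 or 2 or E11.5 array 2 or 3, and 9 without E10.5 array 3), 0 to 1 to E13.5 (0 without the E12.5 male or mixed or any E13.5 array), 0 to 1 to E17.5 (1 without the E17.5 female array), 1 to 5 to E19.5 (1 without the E18.5 or E19.5 male array) and 0 at the other steps. Trends numbered 47 to 48, late changes 16 to 20 lower and 1 to 5 higher (1 without E10.5 array 1 or 2 or the E14.5 or E19.5 female or male or the E15.5 male array, and 5 without the E14.5 or E19.5 mixed array), and male minus female 0. With the sex label as a replicate block the counts against young adults were 50 at E10.5 and 25 at E19.5. From E10.5 to E11.5 the count on the 6 arrays was 0 both with the array number as a replicate block and without it, so that the block changed no call there. The numbers of those 6 arrays name samples only: same-numbered arrays had correlations of deviations of 0.14, -0.21 and 0.12.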
